A study of Drosophila melanogaster with 8 samples.

Results

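The comparison described here is that of the midgut of rescued larvae with the midgut of control larvae. The members are the 4 libraries, of 8 in the series, that carry the labels Pngl Dp/+ (2 libraries) and y w (2 libraries), chosen by genotype label and not by any measured value. Pngl Dp/+ larvae were y w, homozygous for the allele Pngl[ex14], which the study describes as a null, and carried 1 copy of PBac{Pngl[wt]Ch322-3O13}VK27, a transgene that holds a genomic duplication of Pngl. The y w larvae had the wild-type Pngl gene on both second chromosomes and no duplication. The other 4 libraries, used to estimate the spread and to place genes, were Pngl-/- (homozygous Pngl[ex14] without the duplication) and Pngl+/- (Pngl[ex14] over a CyO Kr>GFP balancer chromosome). All larvae were in the third instar at 96 hours after egg laying, each library came from pooled dissected midguts of males and females, and the proportion of the sexes in a pool is not stated. The labels give 40 midguts and the methods another number, and the methods name another insertion site for the duplication than the labels do. The duplication was thus compared in 1 rescue line whose insertion site is uncertain.

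Pngl is the fly counterpart of mammalian NGLY1, a cytosolic enzyme that strips N-linked glycans from misfolded glycoproteins after they leave the endoplasmic reticulum. In worms and mammals the enzyme is also needed to activate transcription factors that keep proteasome genes on. The larval midgut digests food and takes up nutrients, lines its lumen with a chitinous peritrophic matrix, detoxifies dietary compounds and secretes antimicrobial peptides when the Imd or Toll pathway is engaged. A rescue genotype is commonly set against both the mutant and the wild type, and the question addressed here is what still separated the rescued midgut from that of y w.

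Totals were 20414011 and 28382919 counts in Pngl Dp/+ and 20677050 and 24564935 counts in y w, the smallest and the largest of the 8 libraries being those of Pngl Dp/+. Levels are given as CPM, counts scaled to a common library size after TMM normalization. Replicate libraries were further apart than counting error alone would place them (chi-square per gene of 10.05 in Pngl Dp/+ and 3.758 in y w). Each was counted as a separate sample because the methods name biological replicates, which the chi-square alone cannot show. Of 17713 genes, the 7665 with at least 5 CPM in at least 2 of the 8 libraries were tested. A gene is said to be called, or to have risen or fallen, where the fold change was at least 1.5 and the adjusted p of edgeR's quasi-likelihood test, with Benjamini-Hochberg adjustment over the genes tested, was at most 0.05. Every log2 fold change is Pngl Dp/+ over y w unless stated, with its standard error (SE) from the fit.

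Pngl itself (FBgn0033050, chromosome 2R of dm6, 6017739 to 6020695, plus strand, protein coding) was lower in the rescued midgut than in y w. It had 21.1 and 20.7 CPM in Pngl Dp/+, against 33.6 and 31.4 CPM in y w. The log2 fold change was −0.63 (SE 0.06, adjusted p = 5.8e-07), and the groups did not overlap. The libraries labelled Pngl-/- had 58.3 and 56.7 CPM and those of Pngl+/- had 45 and 41.5 CPM, so Pngl mRNA was lowest in the genotype with the duplication and highest in the genotype labelled as the homozygous mutant. The level of Pngl mRNA therefore goes against the label Pngl-/- if that allele is taken to remove the mRNA, and a gene-level count cannot tell reads of the duplicated copy from those of Pngl[ex14]. The call of Pngl was lost when the test was made against a fold change of 1.5.

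The duplication is a genomic clone and can hold neighbours of Pngl, and the genes with an exon within 20 kb were therefore examined. Strica, which encodes a caspase and overlaps the exons of Pngl by 385 bases on the opposite strand, had 21.1 and 21.5 CPM in Pngl Dp/+, against 19.9 and 20.1 CPM in y w (log2 fold change 0.09, SE 0.06, adjusted p = 0.20). Since it is not stated whether strand was used when reads were counted, those in the shared stretch cannot be assigned to either gene. Act42A, a cytoplasmic actin gene, had 340 and 329 CPM in Pngl Dp/+, against 441 and 435 CPM in y w, a difference beyond the spread of the libraries but under the 1.5-fold threshold (log2 fold change −0.39, SE 0.04). The kinase gene Src42A (−0.02, SE 0.06) and SCAP, which escorts the sterol-responsive factor SREBP (0.00, SE 0.07), had near-equal levels. CG14591 was below the filter, with 1.41 and 1.37 CPM in Pngl Dp/+ against 1.6 and 1.98 CPM in y w. None of the neighbours was called.

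The eye colour gene w, a small version of which marks many transgenes, was also below the filter. It had 30 and 42 counts in Pngl Dp/+, against 1 and 7 counts in y w. In the other genotypes it had 3.36 and 3.17 CPM in Pngl+/- and 0.0521 and 0 CPM in Pngl-/-, so the 4 libraries of the genotypes that carry a transgene or a balancer lay above the 4 that carry neither. The body colour gene y had 18 and 11 counts in Pngl Dp/+, against 8 and 7 counts in y w.

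**Figure D1:**
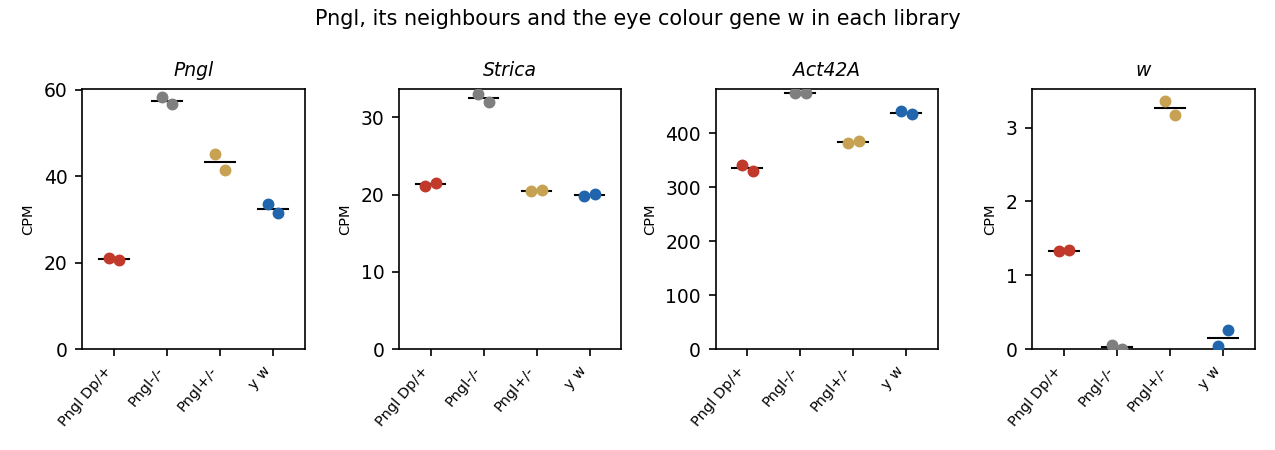
Level in CPM (linear axes from 0) of Pngl, its neighbours Strica and Act42A, and w in each library, with points for the 2 libraries of a genotype and a bar for their mean. Pngl was at 21.1 and 20.7 CPM in Pngl Dp/+, below the 33.6 and 31.4 CPM in y w and the 58.3 and 56.7 CPM in the libraries labelled Pngl-/-.

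Across all genes, 955 genes (12.5% of those tested) were called, of which 520 (6.78%) were higher and 435 (5.68%) were lower in Pngl Dp/+. The split leaned towards higher genes, which made up 54.5% of the calls, but under upper-quartile scaling it leaned the other way, with 436 higher and 563 lower (43.6% higher), and with TMM factors computed on all genes it was 592 higher and 380 lower (60.9% higher). The share of calls in either direction thus depended on the scaling. Most changes were moderate. Of the genes that rose, 283 rose by less than 2-fold, 176 by 2- to 4-fold and 61 by more than 4-fold. Of those that fell, 282 fell by less than 2-fold, 111 by 2- to 4-fold and 42 by more than 4-fold. The libraries of the genotypes did not overlap for 516 of the 520 higher genes and for all 435 lower genes. The median log2 fold change over all genes tested was 0.00. The fit had only 4 residual degrees of freedom, and 4037 genes (52.7%) reached the adjusted p alone, so the fold threshold rather than the p decides most calls. When each library of the comparison was left out in turn, the counts ranged from 497 to 524 higher and from 363 to 460 lower.

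**Figure D2:**
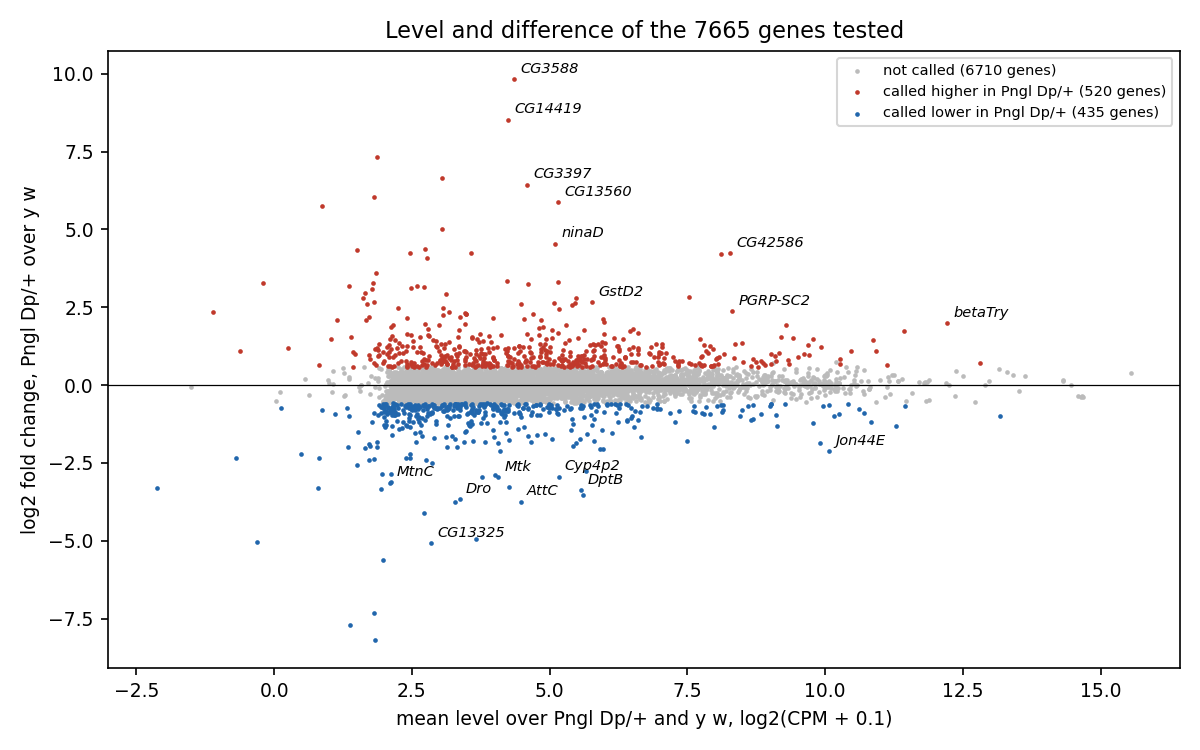
Mean level over Pngl Dp/+ and y w in log2(CPM + 0.1) against the log2 fold change of Pngl Dp/+ over y w, 1 point per gene tested. The 520 genes called higher (red) and 435 called lower (blue) lie around a cloud of uncalled genes (grey) centred on 0, and the named genes mark the ends of the spread.

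Called genes lay on every large chromosome arm. The share called was 13.8% on 2L, 13.9% on 2R, 13.3% on 3L and 13.0% on 3R, and 8.04% on X. On 3R 159 genes rose and 86 fell, whereas on 2L 83 rose and 103 fell. On the small chromosome 4, 3 of 65 genes were called, all lower. Of the 12 genes of the mitochondrial genome that were tested, 2 fell, mt:ND3 (−1.18) and mt:ND4 (−1.07), both of which encode subunits of NADH dehydrogenase.

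The largest rises were in genes that were almost silent in y w. CG3588 (X, 2919770 to 2924426) had 40.4 and 40.5 CPM in Pngl Dp/+, against 0.084 and 0 CPM in y w. Its counts were 914 and 1272 in Pngl Dp/+, against 2 and 0 in y w, a ratio of 1043 with a 95% counting interval from 288 to 8621. CG14419 (X, 2885186 to 2885914) behaved in the same manner, with 37.1 and 38.3 CPM in Pngl Dp/+ against 0.084 and 0.108 CPM in y w, a ratio of 390 (counting interval 167 to 1201). Both genes were also detected in the other genotypes, at 16.3 to 28.9 CPM over the libraries of Pngl-/- and Pngl+/-, so y w was the genotype that stood apart. The same held for lncRNA:CR44316, CG10081 and mthl8, a member of the Methuselah-like receptor family. The lncRNA had 161 and 220 counts in Pngl Dp/+, against 1 and 1 in y w, CG10081 had 150 and 217 counts against 3 and 2, and mthl8 had 76 and 108 counts against 1 and 2. Intervals on these ratios cover counting error only.

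Some large rises set Pngl Dp/+ apart from all other genotypes. CG32071 (3L) had 16.8 and 15.4 CPM in Pngl Dp/+, against at most 0.21 CPM in any of the other 6 libraries, with a log2 fold change over y w of 6.65 (SE 0.27). It passed the filter only through the Pngl Dp/+ libraries. For others the rescued midgut lay between y w and Pngl-/-. CG13560 (2R) had 76.0 and 63.4 CPM in Pngl Dp/+, 337 and 286 CPM in Pngl-/- and 1.01 and 1.33 CPM in y w. ninaD, which encodes a scavenger receptor needed for carotenoid uptake, had 62.2 and 68.3 CPM in Pngl Dp/+, 122 and 119 CPM in Pngl-/- and 2.73 and 2.85 CPM in y w (log2 fold change over y w 4.55, SE 0.07). CG3397 (log2 fold change 6.44), CG33267 (5.01), CG9988 (4.37) and CARPB, a gene of the carbonic anhydrase-related family (4.24), rose as well. Eo, which encodes the ecdysone oxidase that inactivates the moulting hormone, had 9.99 and 10.5 CPM in Pngl Dp/+, against 0.504 and 0.577 CPM in y w (log2 fold change 4.23, SE 0.17).

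CG31775 and CG42586, also among the largest rises, lie close together on 2L. CG31775 had 484 and 571 CPM in Pngl Dp/+, against 29.4 and 28 CPM in y w (log2 fold change 4.20, SE 0.08). CG42586 had 550 and 629 CPM in Pngl Dp/+, against 32.0 and 30.1 CPM in y w (log2 fold change 4.25, SE 0.07). They belong to a run of 6 adjacent genes that all rose, from CG31775 to CG15279 (2L, 14737090 to 14851749). CG42585, within this run, had 9.90 and 0.606 CPM in Pngl Dp/+, against 0.084 and 0.36 CPM in y w, so its call rests on 1 library. The tables do not state how reads with several alignments were counted, and levels of similar neighbouring genes are uncertain for that reason.

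Genes that fell the furthest were low or absent in the rescued midgut. CG13325 (2R) had 0.575 and 0.287 CPM in Pngl Dp/+, against 13.9 and 13.8 CPM in y w (log2 fold change −5.06, SE 0.19). CG9928 (2L) had 1.06 and 0.606 CPM in Pngl Dp/+, against 23.2 and 25.5 CPM in y w (−4.93, SE 0.17). CG15236 (−4.11), CG13078 (−3.74), CG11034 (−3.52), CG16965 (−3.26) and CG14499 (−2.95) followed among genes without an established name. CG9928 and CG15236 were under 1 CPM in all 4 libraries of Pngl-/- and Pngl+/-, so for them y w was again the genotype that stood apart. CG9928 passed the filter only through the y w libraries.

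Among the genes with at most 3 counts in each Pngl Dp/+ library, 3 had the highest levels in y w. CG33093 had 0 and 1 counts in Pngl Dp/+, against 173 and 183 in y w, CG9822 had 1 and 1 counts against 166 and 183, and CG14664 had 0 and 1 counts against 117 and 140. TotF, of the stress-induced Turandot family, had no count in either Pngl Dp/+ library, against 4.83 and 3.96 CPM in y w, and CG16772 had none, against 99 and 126 counts in y w. With 3 counts over both libraries taken as the floor, each of these last genes was at least 78.6-fold lower in Pngl Dp/+. TotF had no count in any of the 6 libraries that carry Pngl[ex14], which leaves y w as the only genotype in which it was seen.

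Several runs of adjacent tested genes moved in 1 direction, and they were picked out after their values were seen. The lysosomal alpha-mannosidase genes LManIII, LManIV, LManV and LManVI on 2L, which take part in glycan breakdown, fell together by 0.63 to 1.42 on the log2 scale. LManIII had 50.8 and 52.5 CPM in Pngl Dp/+, against 96.5 and 93.7 CPM in y w, and LManVI had 292 and 306 CPM against 487 and 473 CPM. In Pngl-/- the same genes were above y w, with 353 and 348 CPM for LManIII and 988 and 974 CPM for LManVI. The odorant-binding protein genes Obp56a, Obp56b, Obp56d and Obp56e on 2R rose by 0.78 to 1.4. Obp56d had 459 and 481 CPM in Pngl Dp/+, against 188 and 184 CPM in y w and 49.2 and 47.7 CPM in Pngl-/-. A run from CG43679 to CG13460 on 3L rose by 0.95 to 2.62, and in it CG13461 had 74.3 and 76.4 CPM in Pngl Dp/+, against 12.2 and 12.3 CPM in y w and under 1 CPM in the 4 libraries of the other genotypes.

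Immune effector genes were mostly lower in the rescued midgut. Of 22 antimicrobial peptide genes listed, 17 were tested, 13 fell and 1 rose, against 5.68% and 6.78% of all genes, and the median log2 fold change of the 17 was −1.99, against 0.00 over all genes. AttC, an attacin active against Gram-negative bacteria, had 2.65 and 3.38 CPM in Pngl Dp/+, against 43.0 and 39.4 CPM in y w (log2 fold change −3.74, SE 0.09, adjusted p = 7.96e-14). Dro, which encodes drosocin, had 1.64 and 1.37 CPM in Pngl Dp/+, against 18.4 and 19.5 CPM in y w (−3.67, SE 0.14). Neither gene had overlapping libraries in the genotypes compared.

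The diptericins, also directed at Gram-negative bacteria, fell as well. DptB had 9.19 and 7.65 CPM in Pngl Dp/+, against 87.7 and 85.0 CPM in y w (log2 fold change −3.37, SE 0.06), and its neighbour DptA had 23.5 and 23.1 CPM against 100 and 93.4 CPM (−2.05, SE 0.05). Mtk, which encodes the antifungal metchnikowin, had 3.09 and 4.33 CPM in Pngl Dp/+, against 30.0 and 29.1 CPM in y w (−2.96, SE 0.11). The remaining called members are given in full without regard to rank. They were CecA1 (−2.34), AttB (−2.11), CecA2 (−2.01), Drsl2 (−1.99), AttA (−1.82), AttD (−1.68), the antifungal drosomycin gene Drs (−1.14) and CecB (−0.74, adjusted p = 0.0492, at about 1 CPM or less). Listericin was the member that rose, with 54.8 and 56.7 CPM in Pngl Dp/+, against 20.8 and 23.1 CPM in y w (1.34, SE 0.08). CecA2, Drsl2 and CecB passed the filter through libraries of other genotypes, and in a fit of the 4 libraries alone, where they were not tested, 10 genes of the list fell. CecC (0.39), Def (−0.10) and edin (−0.52) were tested and not called. The attacin and cecropin genes include close copies, so the division of reads between AttA and AttB or between CecA1 and CecA2 is uncertain.

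Both Pngl Dp/+ libraries lay below all other 6 libraries for 13 of the 17 peptide genes, a position that 10.3% of all tested genes held, and above them for 1, a position that 10.5% held. AttC, for instance, had 10.8 and 10.3 CPM in Pngl-/- and 26.7 and 28.6 CPM in Pngl+/-, and DptB had 103 and 106 CPM in Pngl-/- and 85.7 and 82.6 CPM in Pngl+/-. Set against Pngl-/-, where 22.2% of genes were called higher and 12.1% lower, the median of the list was −3.05, and for Pngl-/- against y w it was 1.11. The summed level of the list was 157 and 161 CPM in Pngl Dp/+, against 438 and 428 CPM in y w.

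Effectors of the Toll pathway were low in both genotypes. Of 14 Bomanin and Daisho genes, 10 were not tested and the other 4, Dso1, BomS1, BomS3 and BomS6, passed the filter only through Pngl-/-, so their values are given as a description. Dso1 had 0.265 and 0.319 CPM in Pngl Dp/+, against 2.9 and 3.06 CPM in y w and 12.1 and 13.1 CPM in Pngl-/-. BomS3 had 0.575 and 0.51 CPM in Pngl Dp/+, against 2.81 and 2.70 CPM in y w, and BomS1 had 0.265 and 0.606 CPM against 2.27 and 2.09 CPM. BomS6 had 0.84 and 0.956 CPM in Pngl Dp/+, against 0.84 and 1.26 CPM in y w.

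Genes upstream of these effectors were rarely called, beside 12.5% called among all genes. None of 11 Imd pathway genes was called, and their log2 fold changes ran from −0.50 to 0.52. An adjusted p of at most 0.05 with a fold under 1.5 was seen for 4 of them. Rel, the NF-kappaB factor of the pathway, had 72.2 and 71.0 CPM in Pngl Dp/+, against 75.0 and 74.3 CPM in y w (−0.06, SE 0.04). The outermost values were those of pirk, an inhibitor of the pathway, with 107 and 106 CPM in Pngl Dp/+ against 151 and 151 CPM in y w, and of the adaptor gene Fadd, with 9.55 and 10.7 CPM against 7.39 and 6.88 CPM. Of 13 Toll pathway genes, SPE, whose protease activates the ligand Spätzle, fell to 4.86 and 4.65 CPM in Pngl Dp/+, against 8.28 and 9.41 CPM in y w (−0.90, SE 0.12). No other Toll pathway gene was called, and 4 had an adjusted p of at most 0.05 with a fold under 1.5.

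Peptidoglycan recognition proteins, which sense or cleave bacterial cell wall, moved in both directions. PGRP-SC2, an amidase that destroys the ligand of the Imd pathway, had 537 and 532 CPM in Pngl Dp/+, against 100 and 105 CPM in y w (log2 fold change 2.38, SE 0.04). PGRP-SC1a, of the same class, had 1120 and 1102 CPM in Pngl Dp/+, against 532 and 604 CPM in y w (0.97, SE 0.05). Its near-identical copy PGRP-SC1b, with which it can share reads, had 735 and 699 CPM in Pngl Dp/+, against 673 and 730 CPM in y w. PGRP-SB1, another amidase, had 8.93 and 9.69 CPM in Pngl Dp/+, against 26.5 and 28 CPM in y w (−1.54, SE 0.09), and the secreted receptor PGRP-SD had 8.04 and 7.93 CPM against 14.3 and 15.1 CPM (−0.88, SE 0.08). The amidase PGRP-LB had near-equal levels (−0.03, SE 0.05).

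**Figure D3:**
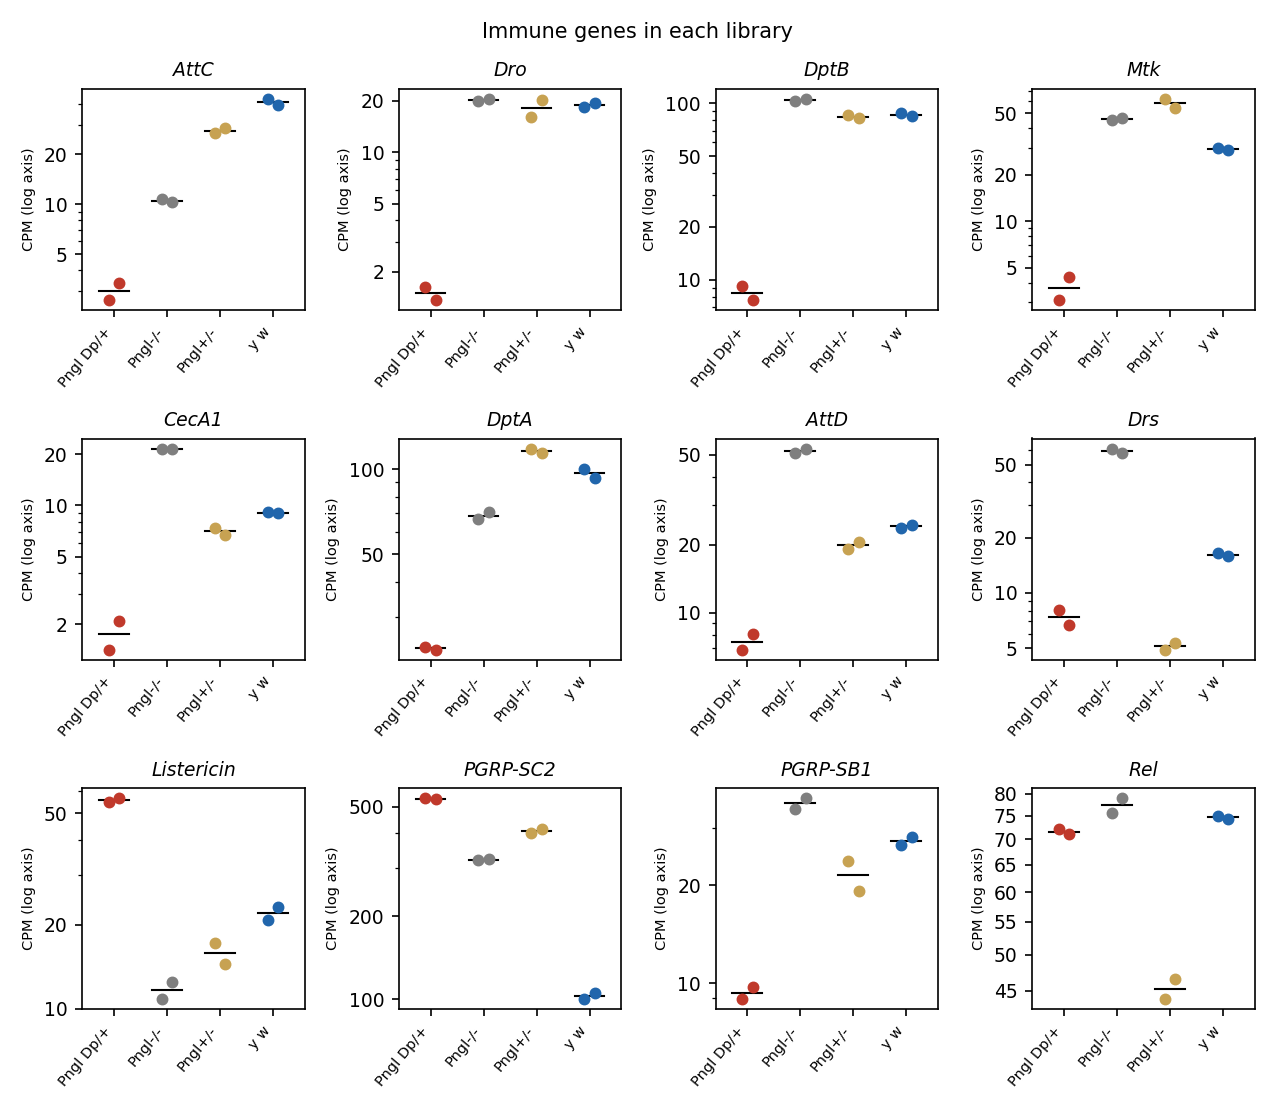
Level in CPM (log axes) of 8 antimicrobial peptide genes, Listericin, the peptidoglycan recognition genes PGRP-SC2 and PGRP-SB1 and the factor gene Rel in each library, with a bar for the mean of 2. Pngl Dp/+ is under y w for the 8 peptide genes and PGRP-SB1, above y w for Listericin and PGRP-SC2, and near it for Rel.

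Lysozymes of the larval midgut digest bacteria in the food. All 7 genes were tested, 4 fell and 1 rose, beside 5.68% lower and 6.78% higher among all genes. LysB had 6504 and 5822 CPM in Pngl Dp/+, against 12020 and 12745 CPM in y w (log2 fold change −1.01, SE 0.05), and LysS had 1557 and 1319 CPM against 3192 and 3899 CPM (−1.30, SE 0.08). LysC fell by a similar amount (−0.98) and LysX had 247 and 217 CPM in Pngl Dp/+, against 457 and 473 CPM in y w, whereas LysP had 3.45 and 3.35 CPM in Pngl Dp/+, against 0.756 and 0.829 CPM in y w. The genes are close copies within 1 cluster on 3L, so their separate values are uncertain. The list summed to 15185 and 13596 CPM in Pngl Dp/+, against 25069 and 27224 CPM in y w.

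Digestive proteases shifted between members rather than as a class. Of 16 Jonah serine protease genes 2 rose and 3 fell, beside 6.78% higher and 5.68% lower among all genes. Jon44E had 405 and 407 CPM in Pngl Dp/+, against 1735 and 1775 CPM in y w (log2 fold change −2.11, SE 0.04), and Jon25Bi had 423 and 411 CPM against 1467 and 1552 CPM (−1.86, SE 0.04). Jon99Fii had 4213 and 4245 CPM in Pngl Dp/+, against 1263 and 1294 CPM in y w (1.73, SE 0.04), and Jon66Cii rose by 1.46. Summed over the list, the level was 118957 and 116411 CPM in Pngl Dp/+, against 101783 and 108328 CPM in y w. Of 11 trypsin genes 3 rose and 1 fell, and betaTry had 7879 and 7347 CPM in Pngl Dp/+, against 1866 and 1962 CPM in y w (1.99, SE 0.05). alphaTry (1.09) and epsilonTry (0.71) rose, and lambdaTry (−0.60) fell. In Jon44E the rescued midgut was near Pngl-/- (507 and 503 CPM) and Pngl+/- (334 and 340 CPM), and so it was in betaTry (7106 and 6885 CPM, and 7776 and 8218 CPM).

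Carbohydrases moved in opposite directions. The amylase genes, which break starch, rose, and most of the maltase genes, which split disaccharides, fell. Amy-p had 1010 and 971 CPM in Pngl Dp/+, against 241 and 278 CPM in y w (log2 fold change 1.93, SE 0.07), Amy-d had 888 and 854 CPM against 283 and 314 CPM (1.54, SE 0.06), and Amyrel rose by 1.58. Amy-p and Amy-d are near-identical copies, and the reads cannot be divided between them with certainty. Treh, which splits trehalose, fell to 81.7 and 87.5 CPM in Pngl Dp/+, against 139 and 128 CPM in y w. Of 9 maltase genes tested, 5 fell and 1 rose, beside 5.68% lower and 6.78% higher among all genes. Mal-A1 had 24.7 and 24.3 CPM in Pngl Dp/+, against 103 and 98.5 CPM in y w (−2.04, SE 0.04), and Mal-A2 (−1.84), Mal-A8 (−1.54) and Mal-A6 (−0.73) fell too. Mal-A7 had 0.751 and 0.606 CPM in Pngl Dp/+, against 7.10 and 6.52 CPM in y w (−3.34, SE 0.19). It passed the filter only through the y w libraries, so its fall, counted among the 5, is given as a description. Mal-A3, the member that rose, had 296 and 293 CPM in Pngl Dp/+, against 188 and 194 CPM in y w.

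Lipases tended to the higher side, with median log2 fold changes of 0.25 for the neutral and 0.70 for the acid lipase genes. Of 9 neutral lipase genes tested 3 rose and 2 fell, beside 6.78% higher and 5.68% lower among all genes. CG6271 had 35.4 and 39.9 CPM in Pngl Dp/+, against 9.24 and 8.22 CPM in y w (log2 fold change 2.12, SE 0.09), far under the 630 and 608 CPM of Pngl-/-. CG6277 (1.88) and CG6295 (1.34) rose, and CG17191 (−1.35) and CG5162 (−0.83) fell. Of 5 acid lipase genes tested 3 rose, among them the starvation-responsive Lip3, with 10.4 and 10.3 CPM in Pngl Dp/+ against 3.49 and 3.39 CPM in y w and 62.9 and 67.6 CPM in Pngl-/-. Another, CG31089 (0.70), passed the filter only through libraries of the other genotypes. For sterol handling, the Niemann-Pick C genes Npc2e (1.51), Npc1b (0.91), needed for sterol uptake in the midgut, and Npc2h (0.59) rose, and none of the 10 fell. The perilipin gene Lsd-1 rose to 193 and 199 CPM in Pngl Dp/+, against 128 and 125 CPM in y w (0.63, SE 0.04), the single call among 10 lipid storage and synthesis genes tested.

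Detoxification genes moved in both directions. Of 61 cytochrome P450 genes tested 20 rose and 7 fell, beside 6.78% higher and 5.68% lower among all genes, with a median log2 fold change of 0.26. Cyp4p1 and Cyp4p2, close relatives on 2R, moved in opposite directions. Cyp4p1 had 77.5 and 77.1 CPM in Pngl Dp/+, against 11.3 and 11 CPM in y w (2.79, SE 0.05), and Cyp4p2 had 7.74 and 8.67 CPM against 62.4 and 64.0 CPM (−2.94, SE 0.08). Pngl-/- had 101 and 99.6 CPM of Cyp4p1 and 0.364 and 0.149 CPM of Cyp4p2, so the 2 mutant-background genotypes lay on the same side of y w. Cyp12c1 (2.64) rose in the same manner, with 57.1 and 59.3 CPM in Pngl Dp/+ and 92.7 and 93.9 CPM in Pngl-/-, against 9.83 and 8.94 CPM in y w. Cyp4e3 had 37.4 and 39.2 CPM in Pngl Dp/+, against 6.34 and 6.31 CPM in y w (2.60, SE 0.07), and was at 2.81 and 2.48 CPM in Pngl-/-.

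Glutathione S-transferases, which couple glutathione to reactive compounds, rose in 10 and fell in 3 of 31 genes tested, beside 6.78% higher and 5.68% lower among all genes, with a median of 0.35. GstD2 had 90.0 and 97.1 CPM in Pngl Dp/+, against 14.7 and 15.0 CPM in y w (log2 fold change 2.65, SE 0.05) and 279 and 275 CPM in Pngl-/-. GstD5, in the same cluster on 3R, had 2.03 and 2.29 CPM in Pngl Dp/+, against 12.2 and 12.3 CPM in y w (−2.49, SE 0.12). The abundant GstD1 rose to 629 and 645 CPM in Pngl Dp/+, against 402 and 398 CPM in y w (0.67, SE 0.04). In the test against a fold change of 1.5, 5 of the list were called higher. Gclc, which makes the glutathione precursor, rose (0.69, SE 0.04), the single call among 14 antioxidant genes tested, and its regulator cnc had 139 and 142 CPM in Pngl Dp/+, against 126 and 120 CPM in y w (0.19), under the fold threshold. Of 26 UDP-glycosyltransferase genes tested 3 rose and 5 fell, beside 6.78% higher and 5.68% lower among all genes. The largest fall was that of Ugt37C1, with 0.84 and 0.86 CPM in Pngl Dp/+ against 7.52 and 7.5 CPM in y w (−3.13, SE 0.21). Ugt37C1, Ugt302K1 (−2.87) and Ugt37A1 (−1.96) passed the filter only through the y w libraries, so their falls, counted among the 5, are given as a description. Fewer genes of the list fell when 1 y w library was left out. The filter was reapplied in such fits, so a gene above it only in the y w libraries was not tested there.

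**Figure D4:**
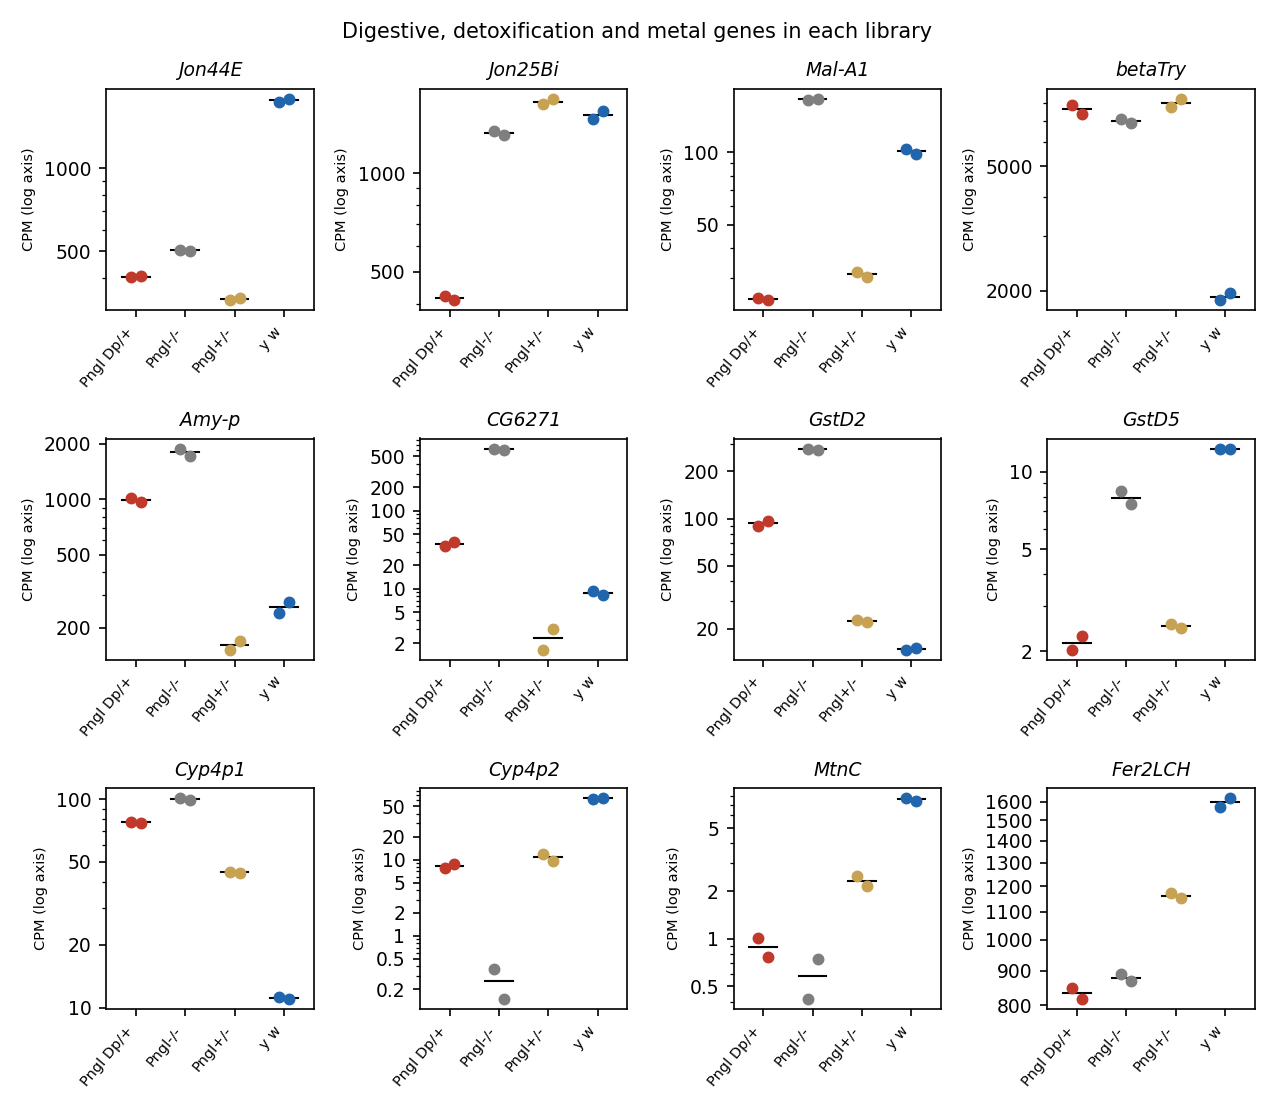
Level in CPM (log axes) of digestive, detoxification and metal genes in each library, with a bar for the mean of 2. Jon44E, Jon25Bi, Mal-A1, GstD5, Cyp4p2, MtnC and Fer2LCH are lower, and betaTry, Amy-p, CG6271, GstD2 and Cyp4p1 higher, in Pngl Dp/+ than in y w.

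Proteasome genes of the rescued midgut had levels close to those of y w. All 33 subunit genes were tested and none was called, beside 12.5% called among all genes. Their log2 fold changes ran from −0.43 to 0.20, with a median of −0.02. In Pngl-/- against y w the median of the same genes was −0.95, and in Pngl Dp/+ against Pngl-/- it was 0.97. The summed level was 3133 and 3129 CPM in Pngl Dp/+, against 3231 and 3246 CPM in y w. An adjusted p of at most 0.05 with a fold under 1.5 was seen for 9 of the genes, the lowest being Rpn3 (−0.43), a subunit of the regulatory particle. Of 24 genes of folding and degradation in the endoplasmic reticulum, Herp, a component of the degradation machinery, rose to 80.5 and 77.0 CPM in Pngl Dp/+, against 47.1 and 49.8 CPM in y w (0.70, SE 0.05), and no other was called.

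Ribosomal protein genes were rarely called, and respiratory chain genes lay on the higher side. None of 82 cytosolic ribosomal protein genes tested was called (median 0.05), and of 71 mitochondrial ones mRpL50 rose (0.68), beside 12.5% called among all genes. All 61 respiratory chain genes of the nuclear genome that were tested had a log2 fold change of 0.00 or above, with a median of 0.31, and 6 rose (9.84%, beside 6.78% of all genes), among them ND-B14 (0.84), ND-AGGG (0.77) and SdhB (0.66). Another 51 had an adjusted p of at most 0.05 with a fold under 1.5. The list summed to 13720 and 13221 CPM in Pngl Dp/+, against 10127 and 10570 CPM in y w. ND-B14 had 65.4 and 65.5 CPM in Pngl Dp/+, against 36.9 and 36.4 CPM in y w and 76.1 and 74.0 CPM in Pngl-/-. Under upper-quartile scaling 3 of these genes were called higher, and in the test against a fold change of 1.5 the number was 2. None of 19 vacuolar ATPase, 14 autophagy, 10 septate junction, 10 Dpp signalling, 4 AMPK complex or 8 fatty acid oxidation genes tested was called.

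Single genes stood out in stress and nutrient pathways. Thor, the translation inhibitor 4E-BP and a target of the Foxo factor, had 421 and 418 CPM in Pngl Dp/+, against 226 and 230 CPM in y w (log2 fold change 0.88, SE 0.03), above all other libraries, while foxo (−0.12), InR (−0.11) and Akt (0.00) were not called. Hsp83, the fly Hsp90 gene, had 749 and 791 CPM in Pngl Dp/+, against 385 and 374 CPM in y w (1.02, SE 0.04), and the other genotypes lay near Pngl Dp/+. TotA, a Turandot stress gene, rose to 326 and 359 CPM in Pngl Dp/+, against 191 and 181 CPM in y w (0.88, SE 0.05). In the JNK pathway the ligand gene egr (−0.96) and Gadd45 (−0.95) fell, and the other 7 genes were not called. Among all genes 5.68% were called lower.

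Of 8 iron genes tested 3 fell and none rose, beside 5.68% lower and 6.78% higher among all genes. The other 5 had log2 fold changes from −0.18 to 0.21. The ferritin subunit genes Fer2LCH and Fer1HCH, which share 118 exon bases on opposite strands, had 849 and 817 CPM and 1081 and 1083 CPM in Pngl Dp/+, against 1572 and 1619 CPM and 1657 and 1653 CPM in y w, log2 fold changes of −0.94 (SE 0.04) and −0.61 (SE 0.04). Tsf1, encoding the iron carrier transferrin, had 205 and 192 CPM in Pngl Dp/+, against 347 and 379 CPM in y w (−0.87, SE 0.05). MtnC, a metallothionein gene, had 1.02 and 0.765 CPM in Pngl Dp/+, against 7.73 and 7.42 CPM in y w (−3.11, SE 0.19), and the other 8 metal-handling genes tested in its list were not called.

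Structural genes of matrix and cuticle moved both ways. Of 44 cuticular protein genes tested 14 rose and 5 fell, beside 6.78% higher and 5.68% lower among all genes, and the median was 0.31. Lcp65Ae had 9.33 and 10.3 CPM in Pngl Dp/+, against 1.22 and 1.05 CPM in y w (log2 fold change 3.13, SE 0.17), at the end of a run of 5 neighbouring Lcp65A genes on 3L that all rose. Lcp2 fell to 253 and 254 CPM in Pngl Dp/+, against 548 and 548 CPM in y w (−1.11, SE 0.04). Fewer cuticular genes fell when 1 y w library was left out, in fits where the filter was reapplied. Of 12 peritrophin and chitin-binding genes obst-I rose to 76.0 and 69.4 CPM in Pngl Dp/+, against 11.6 and 12.7 CPM in y w (2.57, SE 0.06), and obst-J (−1.12) and obst-E (−0.74) fell. Among 7 mucin genes tested Muc68Ca rose (0.63), and Muc68E (−1.03), Muc11A (−0.67) and Muc96D (−0.63) fell. Muc68Ca had 561 and 608 CPM in Pngl Dp/+ and 367 and 387 CPM in y w, both far above the 46.9 and 52.6 CPM of Pngl-/-.

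Markers of midgut cell types were mostly not called, and among all genes 12.5% were called. All 5 enterocyte markers were present in every library, and betaTry was the only one called. Of 7 enteroendocrine markers pros (−0.85) and AstA (−0.79) fell, with sums of 67.4 and 64.8 CPM in Pngl Dp/+ against 79.8 and 81.3 CPM in y w, and the others had values from −0.12 to 0.38. Of 4 progenitor markers listed, esg and Dl were not analysed, and neither of the 2 tested, N and E(spl)mbeta-HLH, was called. Both were lower in Pngl Dp/+, with log2 fold changes of −0.48 and −0.30 at an adjusted p of at most 0.05 but under the 1.5-fold threshold. Their sums were 19.2 and 18.7 CPM in Pngl Dp/+ against 25.4 and 25 CPM in y w. Of the 3 copper cell markers, which summed to 99.1 and 106 CPM in Pngl Dp/+ against 90.7 and 96.2 CPM in y w, 2 were tested and none was called. None of 5 visceral muscle markers was called, with sums of 5613 and 5631 CPM in Pngl Dp/+ against 5507 and 5683 CPM in y w. In pooled tissue, fewer cells of a type and less RNA per cell cannot be told apart.

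Transcripts of tissues next to the midgut were abundant. The 7 fat body markers summed to 34317 and 35628 CPM in Pngl Dp/+, against 31469 and 31097 CPM in y w, with Fbp1 called (0.63) and the others from −0.26 to 0.29. The 6 salivary glue genes summed to 6839 and 6964 CPM in Pngl Dp/+, against 3878 and 3808 CPM in y w, and Sgs4 (1.23), Sgs7 (1.11), Sgs5 (0.84) and Sgs8 (0.70) rose, while Sgs1 had a value of −0.43. Uro, the urate oxidase gene of the Malpighian tubule, fell to 26.0 and 25.5 CPM in Pngl Dp/+, against 76.5 and 76.9 CPM in y w (−1.58, SE 0.05), while the tubule potassium channel gene Irk3 was not called (0.01). The Malpighian tubule list summed to 50.5 and 51.4 CPM in Pngl Dp/+, against 104 and 99.8 CPM in y w. The 6 trachea and cuticle markers summed to 6901 and 7475 CPM in Pngl Dp/+, against 7045 and 6969 CPM in y w, with Lcp2 the one that fell. NimC1, a phagocytic receptor gene of hemocytes, rose (2.62) and Hml, another hemocyte gene, fell (−0.62). NimC1 had 4.82 and 5.90 CPM in Pngl Dp/+ and passed the filter only through these libraries, so its higher level is given as a description. The hemocyte list summed to 47.0 and 43.6 CPM in Pngl Dp/+ against 46.5 and 46.3 CPM in y w, with values from −0.01 to 0.53 for the uncalled members. The 8 testis markers summed to 25.1 and 24.2 CPM in Pngl Dp/+ against 28 and 28 CPM in y w, and lncRNA:roX1, an RNA of male dosage compensation, rose to 78.9 and 81.5 CPM in Pngl Dp/+, against 51.4 and 49.5 CPM in y w (0.67, SE 0.05), the single call among 10 dosage compensation and sex genes tested. No marker of the fat body, salivary gland, hemocyte or testis lists was at 0 in any of the 4 libraries. The part of attached tissue or of the proportion of males in the differences above was not tested.

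Glue and ecdysone genes follow the stage of the third instar. Of 13 ecdysone response genes tested 3 fell and none rose, beside 5.68% lower and 6.78% higher among all genes. Hr4, a nuclear receptor gene, had 1.10 and 0.956 CPM in Pngl Dp/+, against 7.81 and 7.17 CPM in y w (log2 fold change −2.87, SE 0.18), ImpE1 had 3.01 and 3.19 CPM against 9.20 and 9.91 CPM (−1.62, SE 0.13), and Eip78C had 3.89 and 3.86 CPM against 8.61 and 6.96 CPM. Hr4 had at most 0.989 CPM in Pngl-/- and in Pngl+/-. It passed the filter only through the y w libraries, so its higher level in y w is given as a description. The receptor genes EcR (0.20) and usp (−0.05) and the early gene br (−0.54) were not called. Whether the genotypes differed in stage at the same hour was not tested.

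**Figure D5:**
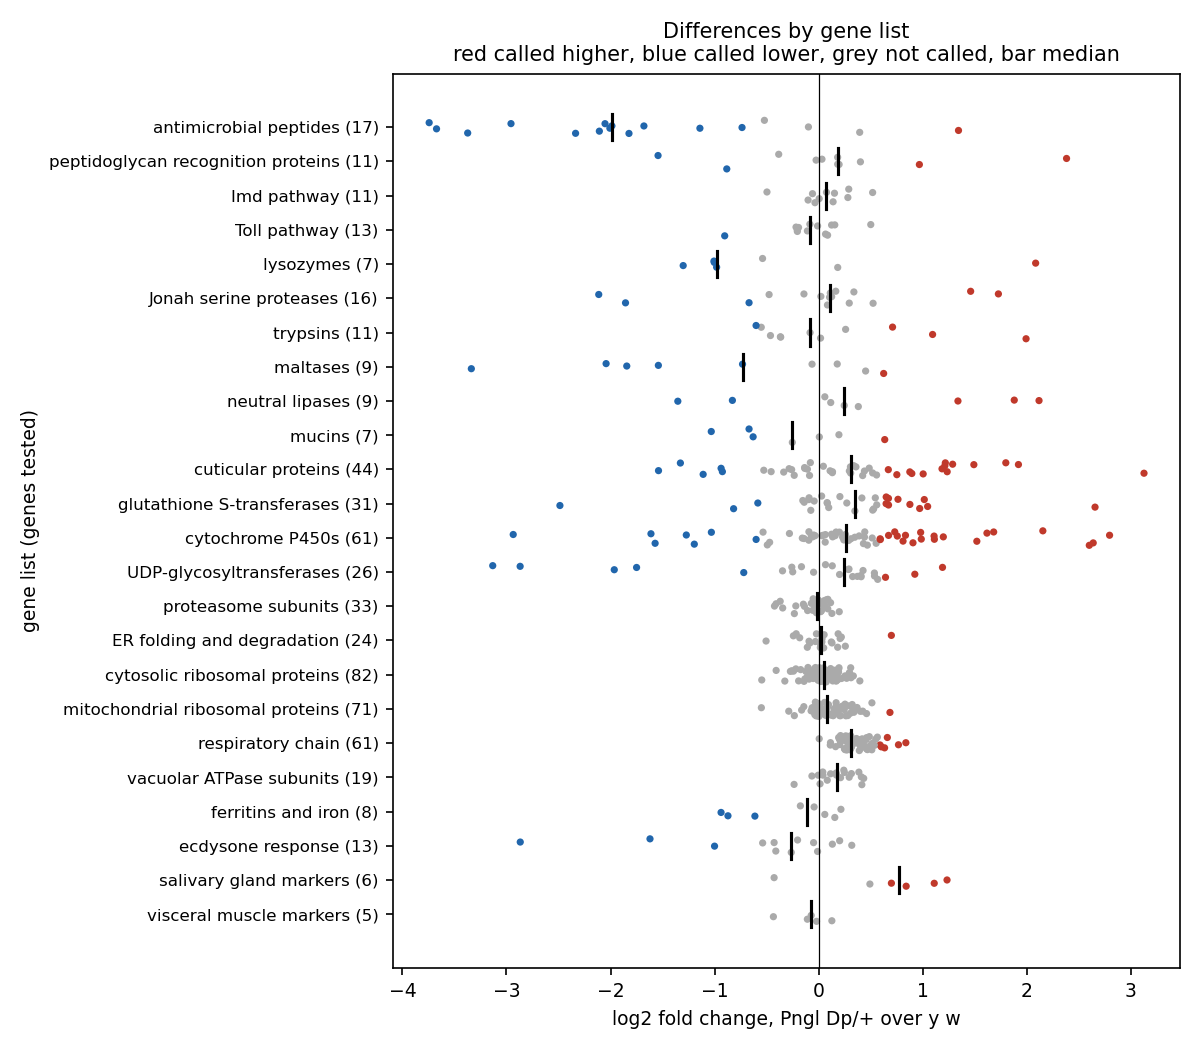
Log2 fold change of Pngl Dp/+ over y w for the tested members of 24 gene lists (number tested in brackets), 1 point per gene, coloured by call, with a black bar at the median. Antimicrobial peptides (median −1.99) lie to the left, proteasome (−0.02) and cytosolic ribosomal protein genes (0.05) gather at 0, and detoxification genes spread to both sides.

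Of the 54 lists, 811 tested genes belonged to at least 1, and 171 of the 955 called genes were among them. The other 784 called genes were in no list.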

How the data were processed

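Paired-end libraries of larval midgut RNA were made with a stranded kit. Per the methods, the authors trimmed reads with cutadapt (1.4 in the submitters' processing notes, while the methods name another version), aligned them to dm6 with STAR 2.5.3 and deposited raw counts per gene on collapsed FlyBase exons. Whether strand or multiply aligned reads entered the counting is not given in the sources used here. The deposited counts of 17713 genes carry no normalization or filter, and no column of the table was left unmatched to a sample.

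From these counts, edgeR 4.0.16 in R 4.3.3 fitted all 8 libraries with 1 mean per genotype and no block, with TMM factors on the 7665 genes with at least 5 CPM in at least 2 libraries. Called genes had a quasi-likelihood p, adjusted after Benjamini and Hochberg, of 0.05 or less and differed 1.5-fold or more. The methods name 2 biological replicates per genotype, and p-values measure the spread between such pooled samples. The scripts were tested on simulated data. Positions came from an annotation of the same assembly, which placed 17582 of the genes. Gene lists were described by counts and medians without a test. Alternatives were edgeR's likelihood ratio test, DESeq2 1.42.0, other scalings and filters, the 4 libraries alone, a test with a 1.5-fold null, a replicate block, and omission of single libraries. A crossed replicate block was chosen after seeing the data.

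Named are Pngl, Strica, y and w, genes within 20 kb of Pngl, the 12 largest and 12 smallest log2 fold changes among called genes with at least 10 CPM in the higher genotype, the 5 most abundant genes with at most 3 counts in each library of the other genotype, and in each list the 4 largest called changes, the 2 most abundant members and, for lists of at most 20, every member. Other genes were named after their values were seen. The members and lists were chosen with earlier results of these data known. The symbols Pdi, TER94, Med, esg, Dl and ByeByte of the lists are not analysed here.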

Additional observations from a re-analysis of the deposited data

How the results depend on the processing

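No call of Pngl Dp/+ against y w turned round under any alternative. Of 423 named genes tested, 137 were called, 25 of them lost the call under at least 1 alternative, all 25 in the test against a fold change of 1.5, and 12 uncalled genes gained one. Without a filter 863 genes were higher and 755 lower, with a filter of 1 CPM 737 were lower, and in the test against a fold change of 1.5, 241 were lower, a test in which the log2 fold change of Pngl (−0.63) was no longer called. Against Pngl-/-, 2797 genes were higher and 371 lower without composition normalization, 3149 higher and 1808 lower without a filter, 1541 lower with TMM factors from all genes and 1511 lower with a filter of 1 CPM. For the cuticular list, 25 genes were higher and 10 lower without a filter, and 9 lower with 1 CPM. In the test against a fold change of 1.5, 5 glutathione S-transferase and 2 respiratory chain genes were higher, and under upper-quartile factors 3 respiratory chain genes were. Leaving out 1 library gave 3 to 5 cuticular and 2 to 5 UDP-glycosyltransferase genes lower. More genes tested, or another scale or threshold, define these settings. The filter was reapplied when a library was left out. A gene above it only in the y w libraries was therefore not tested when 1 of them was omitted. The cause of the remaining shifts was not tested. Nothing in the labels ties samples by replicate number. Over genes the deviations of replicate 1 correlated at −0.20 between Pngl Dp/+ and y w, at 0.38 between Pngl Dp/+ and Pngl+/-, and from −0.07 to 0.00 in the other 4 pairs of genotypes, so no shared pairing was taken. With a replicate block 518 genes were higher and 431 lower, and with the crossed replicate block 518 and 435. With DESeq2 499 were higher and 453 lower. In the fit of the 4 libraries alone, which changes both the filter and the estimate of the spread, 10 antimicrobial peptide genes were lower and no Bomanin or Daisho gene was tested. With 2 libraries a genotype, the spread is borrowed from all 4 genotypes, and genes at a few counts have wide counting intervals.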
